A study of Mus musculus with 4 samples.

Results

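The genes that encode voltage-gated calcium channels, voltage-gated sodium channels, the hyperpolarization-activated channels (HCN) and the sodium leak channel Nalcn were examined in nuclei of the mouse hippocampus. The set is a list of 31 genes named by family, and all 31 were found by their gene identifiers among the 55422 in the count tables. RNA of single nuclei had been counted in 4 libraries of hippocampal tissue from adult mice. The 2 Control libraries were Kat6a-f/f, in which both copies of Kat6a carry loxP sites. The 2 Kat6a-cKO libraries were NEX-cre with Kat6a-f/f. All 4 thus carried the floxed Kat6a alleles, and the labels name NEX-cre only for the Kat6a-cKO libraries. NEX-cre itself and the Kat6a deletion therefore cannot be told apart in this design. NEX-cre is a Cre recombinase at Neurod6, a gene of forebrain excitatory neurons, so the deletion is directed at those neurons and not at inhibitory neurons or glia. KAT6A is a histone acetyltransferase, and the title of the series concerns cognition and RSPO2/Wnt signalling in CA3. The labels give no sex, exact age, litter or batch, and do not say how many animals a library holds. P-values therefore measure the spread between these libraries.

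A voltage-gated calcium channel is built around 1 pore-forming subunit, with a beta subunit on the cytoplasmic side and an alpha2delta subunit outside the cell that together set how many channels reach the membrane and how they gate. The pore subunits are grouped by current: L-type channels couple activity to gene expression, P/Q-, N- and R-type channels drive transmitter release and dendritic calcium entry, and T-type channels open near rest and support burst firing. Sodium channels have 1 pore subunit and small beta subunits and carry the upstroke of the action potential. HCN channels open on hyperpolarization, and Nalcn carries a steady sodium leak that sets the resting potential. In the hippocampus these genes give CA3, CA1, granule cells and interneurons much of their distinct firing.

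The libraries held 171323466 to 186897245 counts. Barcodes with at least 5000 unique molecular identifiers (UMIs) were used for neurons and those with at least 1000 for glia, and pairs of libraries shared 15 to 20 barcodes at the first minimum and 27 to 35 at the second. Clusters were named from marker genes without using the channel genes, so a name such as CA3 stands for CA3-like nuclei. The 8 markers of CA3 summed to 4657 to 4957 CPM (UMI counts of a gene per 1000000 counts of the class) in CA3 nuclei and to 405 to 512 CPM in CA1 nuclei. In all libraries together, the named classes held 2835 CA3, 7315 CA1, 418 CA2 and 12225 dentate granule nuclei. They further held 573 immature dentate, 183 mossy, 1223 other excitatory (subicular and deep layer), 102 Cajal-Retzius and 2454 inhibitory nuclei. Glia came to 1842 astrocytes, 3720 oligodendrocytes, 1073 oligodendrocyte precursors and 1894 microglia. Kat6a had 63.0 and 65.4 CPM in Control, against 59.5 and 65.4 CPM in Kat6a-cKO in CA3. The counts cover the whole gene, so they do not check the deletion. An entry of the tables named ENSMUSGcre.1, which the labels do not describe, had 0 counts in CA3 in both Control libraries and 40 and 54 counts in the Kat6a-cKO libraries. In dentate granule nuclei, a larger class, it had 0 counts in both Control libraries, against 5 and 6 counts in Kat6a-cKO, and a count of 0 allows up to 3 counts in a library. Barcodes with fewer than 100 UMIs were taken as a profile of free RNA, which can enter any droplet.

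The sequences before the transcription start are shown for 5 genes on which the differences between classes of nuclei turn, namely 3 alpha2delta genes, each highest in another of the named interneuron classes, and the neighbouring sodium channel genes Scn1a and Scn9a, both highest in Pvalb interneurons. They are the 250 bases before the start in RefSeq (build GRCm38.p6), written 5′ to 3′ on the strand of the gene, and capitals mark each GGGCGG or its reverse complement CCGCCC, the GC box. Of the 31 genes, 24 had an entry in this table.
Cacna2d1 (chr5:15934441-15934690, plus strand): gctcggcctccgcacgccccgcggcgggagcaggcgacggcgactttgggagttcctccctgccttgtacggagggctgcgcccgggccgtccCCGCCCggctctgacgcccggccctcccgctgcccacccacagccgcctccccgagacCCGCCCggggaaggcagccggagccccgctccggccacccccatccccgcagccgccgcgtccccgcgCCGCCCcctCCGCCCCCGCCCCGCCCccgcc
Cacna2d2 (chr9:107399630-107399879, plus strand): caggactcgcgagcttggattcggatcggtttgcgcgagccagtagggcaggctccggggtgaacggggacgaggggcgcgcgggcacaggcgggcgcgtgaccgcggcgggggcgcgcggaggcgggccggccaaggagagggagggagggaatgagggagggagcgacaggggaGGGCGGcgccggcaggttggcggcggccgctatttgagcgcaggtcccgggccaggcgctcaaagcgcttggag
Cacna2d3 (chr14:29721865-29722114, minus strand): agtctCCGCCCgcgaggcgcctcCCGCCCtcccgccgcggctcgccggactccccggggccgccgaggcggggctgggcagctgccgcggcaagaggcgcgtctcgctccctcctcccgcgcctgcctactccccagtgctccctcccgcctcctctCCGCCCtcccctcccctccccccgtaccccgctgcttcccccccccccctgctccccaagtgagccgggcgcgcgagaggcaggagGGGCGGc
Scn1a (chr2:66440838-66441087, minus strand): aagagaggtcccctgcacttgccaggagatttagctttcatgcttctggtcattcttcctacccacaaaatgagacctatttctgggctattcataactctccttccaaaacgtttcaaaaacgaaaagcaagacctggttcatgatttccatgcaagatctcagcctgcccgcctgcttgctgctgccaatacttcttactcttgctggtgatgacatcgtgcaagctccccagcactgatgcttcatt
Scn9a (chr2:66634963-66635212, minus strand): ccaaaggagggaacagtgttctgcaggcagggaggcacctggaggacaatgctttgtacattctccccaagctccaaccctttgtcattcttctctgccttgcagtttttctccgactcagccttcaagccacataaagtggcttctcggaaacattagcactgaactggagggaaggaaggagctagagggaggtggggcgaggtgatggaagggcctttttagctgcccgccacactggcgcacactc
The GC content was 82.4%, 74.4% and 80.0% in the sequences of Cacna2d1, Cacna2d2 and Cacna2d3, and 46.8% and 54.4% in those of Scn1a and Scn9a. The median over all 32851 entries was 52.4%. The GC box occurred 6, 1 and 4 times in the alpha2delta sequences, counted on both strands with overlaps allowed, and 0 times in Scn1a and Scn9a. It was in 14 of the 34 entries of the channel genes and in 32.7% of all entries. All 3 alpha2delta sequences were above that median in GC content, and above the median of 58.8% over the entries of the channel genes. Cacna2d4, the other alpha2delta gene, had no entry. A relation of GC content to the classes was not tested. These are matches of letters and not sites shown to be bound.

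Among the pore genes of calcium channels, Cacna1a, Cacna1c and Cacna1e separated CA3, CA1 and dentate granule nuclei. Levels across classes are given as a description, since the classes are clusters of these same nuclei. Values are CPM of the counts summed over a class in each library, and means are over the 2 Control libraries with their SD. Cacna1a, the P/Q-type pore that drives fast transmitter release, had 1019 and 1029 CPM in Control, against 997 and 981 CPM in Kat6a-cKO in CA3. In CA1 it had 413 and 426 CPM in Control, against 408 and 414 CPM in Kat6a-cKO, so that every CA3 library lay above every CA1 library. The Control mean was 1024 ± 6.73 CPM in CA3, 887 ± 55.1 CPM in CA2 and 852 ± 63.9 CPM in mossy cells. CA2 and mossy cells overlapped each other, while CA3 lay above both in all 4 libraries. The lowest neuronal mean was 84.3 ± 3.45 CPM in Cck interneurons. Cacna1b, the N-type pore, had its highest mean in those same Cck interneurons, at 689.9 ± 14.4 CPM, with 700.1 and 679.7 CPM in Control, against 726 and 673 CPM in Kat6a-cKO. It was lowest among the neurons in dentate granule nuclei, at 177 ± 6.42 CPM. Levels of different genes were set side by side per 100 kb of gene, a scale that takes counts to grow with gene length. That assumption was not tested, and the use of intronic reads is not given in the sources used here. Per 100 kb the Control means in Cck interneurons were 433 CPM for Cacna1b and 33.5 CPM for Cacna1a. In CA3 they were 407 CPM for Cacna1a and 212 CPM for Cacna1b. On this scale Cacna1a ranked first of the 31 genes in CA3, Scn3b in CA1 and Scn3b in dentate granule nuclei.

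Cacna1e, the R-type pore, was highest in dentate granule, CA1 and CA3 nuclei. It had 1769.7 and 1767 CPM in Control, against 1696 and 1689.8 CPM in Kat6a-cKO in dentate granule nuclei, the highest class. CA1 followed with 1339 ± 46.2 CPM and CA3 with 1261 ± 61.8 CPM, and the 3 classes did not overlap over the 4 libraries. Pvalb interneurons were the lowest of the 13 neuronal classes, with 33.3 and 18.2 CPM in Control, against 27.9 and 10.4 CPM in Kat6a-cKO. Cck, Sst, Vip and Lamp5 interneurons had Control means of 40.3, 109.6, 137 and 267 CPM. Mossy cells had 341 ± 57.4 CPM, and the Control mean of oligodendrocyte precursors was 339.6 CPM. Free RNA had a Control mean of 835 CPM, above the means of all classes except dentate granule, CA1, CA3 and immature dentate nuclei.

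Of the L-type pores, Cacna1c varied between the hippocampal fields and Cacna1d varied little. Cacna1c had 1613 and 1685 CPM in Control, against 1661 and 1673 CPM in Kat6a-cKO in CA3. In CA1 it had 388 and 453 CPM in Control, against 549 and 448 CPM in Kat6a-cKO, below every library of CA3, CA2, dentate granule and mossy nuclei. Immature dentate nuclei had the highest mean, 1850.1 ± 30.2 CPM. CA2 and dentate granule nuclei overlapped, with Control means of 1416 and 1414 CPM. The lowest neuronal mean was 387 ± 31.1 CPM in Pvalb interneurons, which overlapped CA1. Cacna1d had neuronal means from 452 CPM in Cajal-Retzius nuclei to 809 CPM in CA2. Cacna1f, best known from the retina, stayed at or below 3.56 CPM in the mean of every neuronal class.

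The T-type pores each had their highest mean in a different class. Cacna1h had 115 and 92.8 CPM in Control, against 103 and 123 CPM in Kat6a-cKO in dentate granule nuclei, above every library of every other class, and 2.66 ± 0.272 CPM in Lamp5 interneurons. Cacna1i was highest in mossy cells, with 97.4 and 81.3 CPM in Control, against 83.5 and 87.4 CPM in Kat6a-cKO. Cacna1g was highest in Vip interneurons, at 54.0 ± 10.3 CPM, which overlapped Sst interneurons, other excitatory neurons and immature dentate nuclei. Per 100 kb Cacna1h came to 175 CPM in dentate granule nuclei, beside 158 CPM for Cacna1d. In CA1 Cacna1g had 33.5 and 35.6 CPM in Control, against 39.9 and 36.2 CPM in Kat6a-cKO, and in CA3 it had 5.23 and 6.08 CPM in Control, against 6.33 and 5.17 CPM in Kat6a-cKO. CA3 nuclei thus carried more Cacna1a and Cacna1c and less Cacna1g than CA1 nuclei in all 4 libraries.

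**Figure D1:**
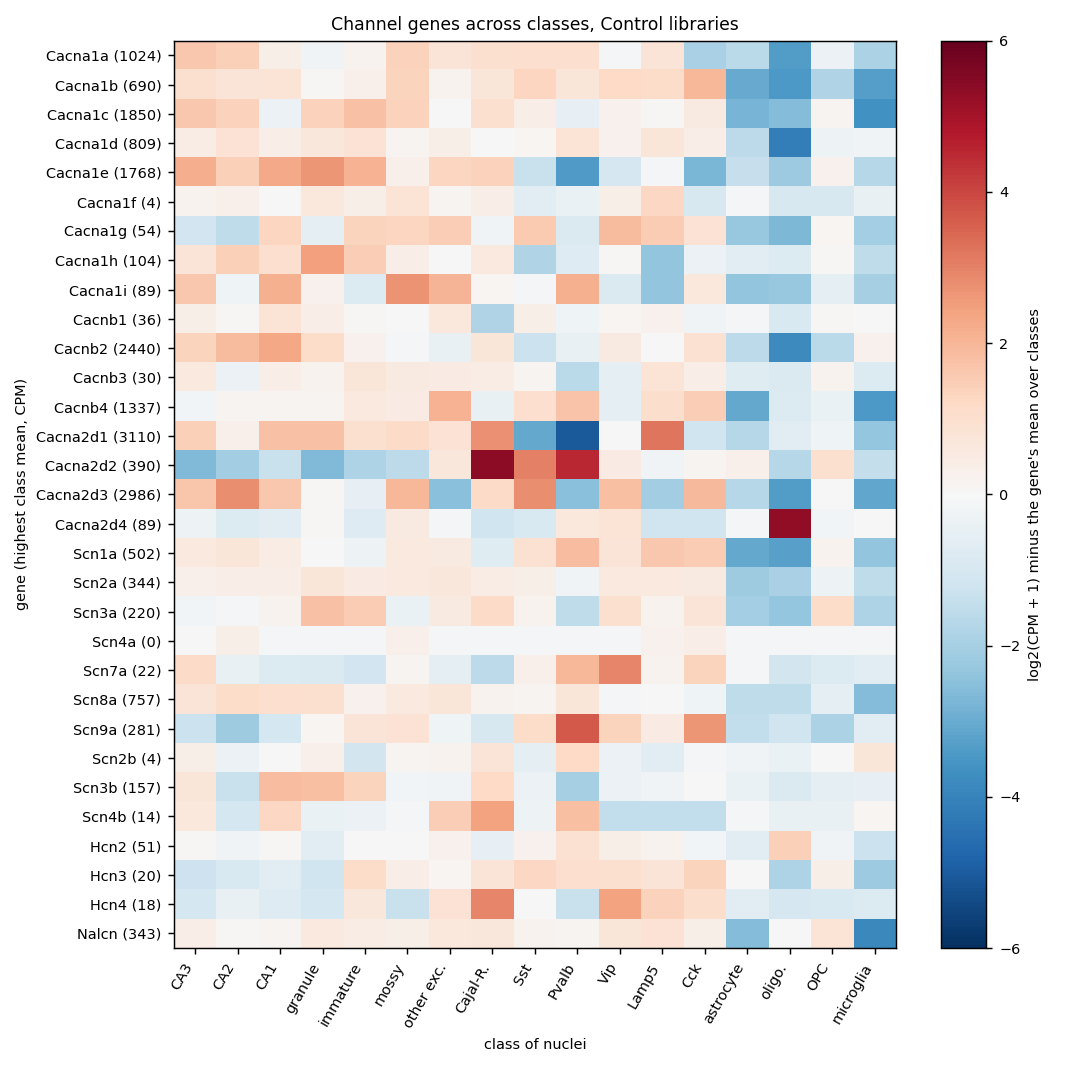
Mean level of the 31 channel genes (rows) in 17 classes of nuclei (columns) over the 2 Control libraries, as log2(CPM + 1) minus the mean of the gene over the classes; the number beside a gene is its highest class mean in CPM. Cacna2d4 stands out in oligodendrocytes, Cacna2d2 in Cajal-Retzius and Pvalb nuclei, and Scn9a in Pvalb and Cck nuclei.

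The beta and alpha2delta genes also differed between classes. Cacnb2 was highest in CA1, with 2361 and 2519 CPM in Control, against 2293 and 2524 CPM in Kat6a-cKO, and had 1830.3 ± 29.0 CPM in CA2, 1234 ± 20.7 CPM in CA3 and 199 ± 8.54 CPM in Sst interneurons, the lowest of the 13 neuronal classes. Cacnb4 was instead highest outside CA1 to CA3. It had 1337 ± 118 CPM in other excitatory neurons, 1030.0 ± 9.09 CPM in Pvalb and 879.9 ± 96.0 CPM in Cck interneurons, against 280.0 ± 42.4 CPM in CA3. The other 2 beta genes were low in CPM, with neuronal class means of 5.15 to 35.9 CPM for Cacnb1 and 4.63 to 30.2 CPM for Cacnb3. Both are short genes, and on the untested scale per 100 kb Cacnb3 came to 183 CPM in CA3, beside 321 CPM for Cacnb2.

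The alpha2delta genes differed between the 5 named interneuron classes. These classes hold 1688 of the 2454 inhibitory nuclei, and the other 766 were not named and are in none of them. The Pvalb class is a single cluster of 208 nuclei with 3 of its 5 markers raised. Clusters with 2 of these 5 markers raised were left unnamed, so statements on Pvalb interneurons cover that cluster only. Cacna2d1, a target of gabapentin, was highest in Lamp5 interneurons, with 3162 and 3059 CPM in Control, against 3356 and 3060.0 CPM in Kat6a-cKO. In Pvalb interneurons it had 5.7 and 13.2 CPM in Control, against 16.4 and 13.0 CPM in Kat6a-cKO, and in Sst interneurons the Control mean was 39.5 ± 8.38 CPM. Cacna2d3 was highest in Sst interneurons, with 2998 and 2975 CPM in Control, against 3198 and 3191 CPM in Kat6a-cKO. Cck and Vip interneurons also held much Cacna2d3, with Control means of 1671 and 1474 CPM. Cacna2d3 was low in Pvalb and Lamp5 interneurons, with 73.5 ± 57.3 CPM and 99.0 ± 24.7 CPM. Cacna2d2 among these classes was highest in Pvalb interneurons, with 216 and 219 CPM in Control, against 216 and 217 CPM in Kat6a-cKO. Of the 13 neuronal classes it was higher only in Cajal-Retzius nuclei, with 446 and 334 CPM in Control, against 368 and 390.5 CPM in Kat6a-cKO, while CA3 had 0.526 ± 0.0385 CPM. Cacna2d1, Cacna2d3 and Cacna2d2 thus peaked among the named interneuron classes in Lamp5, Sst and Pvalb interneurons in turn, with no overlap with another of the 5 classes in any library. CA2 pyramidal nuclei were set apart by Cacna2d3, at 2951 ± 23.95 CPM, against 1363 ± 25.0 CPM in CA3 and 1317 ± 74.2 CPM in CA1. In other excitatory neurons Cacna2d3 was near its lowest, at 73.3 ± 3.3 CPM.

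Cacna2d4 was an oligodendrocyte gene in these nuclei. It had 93.7 and 83.7 CPM in Control, against 99.8 and 94.5 CPM in Kat6a-cKO in oligodendrocytes. In the neuronal classes its Control means were 0 to 3.04 CPM. Cck interneurons had 0 counts in all 4 libraries, where 3 counts come to 2.38 to 3.46 CPM, and in free RNA it had 4.92 and 4.04 CPM in Control, against 4.89 and 2.57 CPM in Kat6a-cKO. GENCODE M21 places Cacna2d4 on chromosome 6, 119236526 to 119352407, plus strand, under another version of its identifier, with Lrtm2 overlapping it on the other strand. Lrtm2 had 0.123 CPM in oligodendrocytes in the Control mean.

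**Figure D2:**
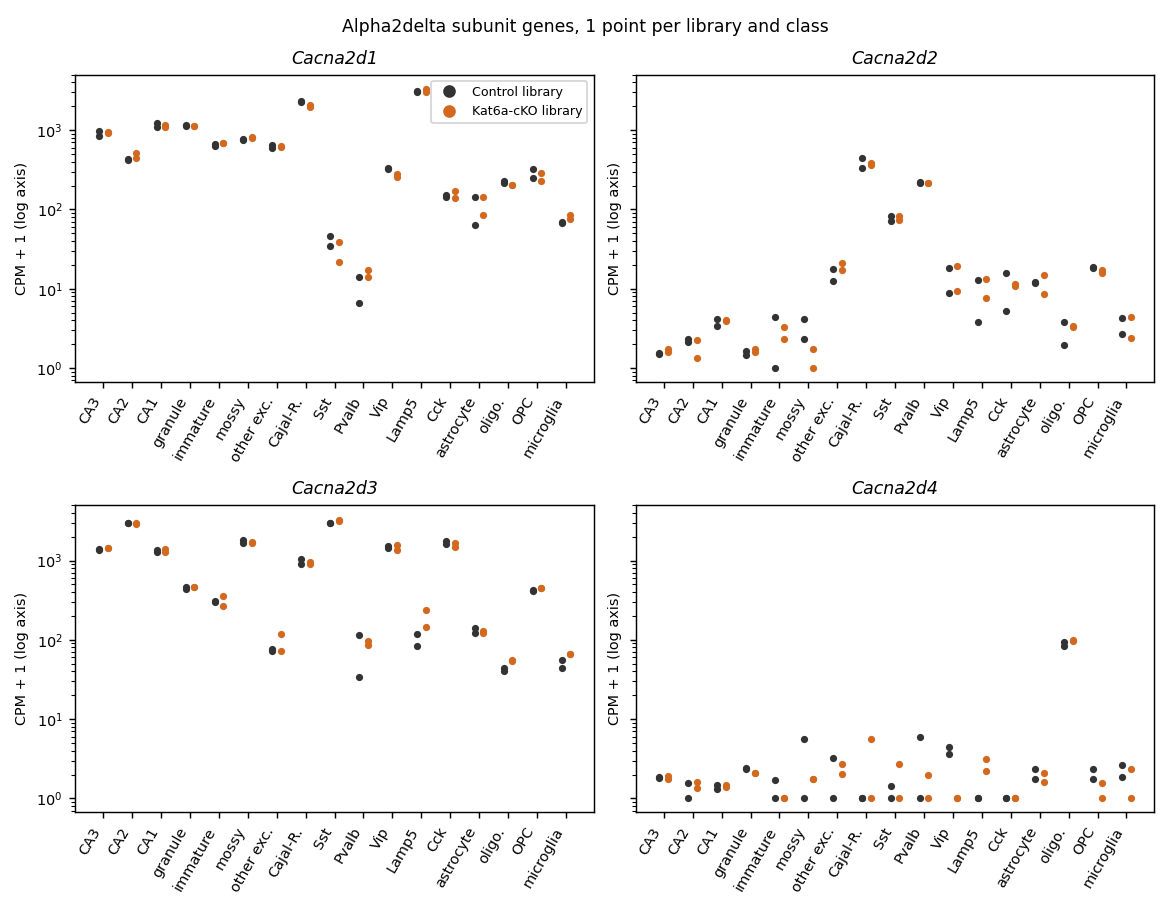
CPM + 1 (log axis) of the 4 alpha2delta genes in each library (1 point per library; Control black, Kat6a-cKO orange) in 17 classes of nuclei. Among the 5 named interneuron classes Cacna2d1 is highest in Lamp5, Cacna2d3 in Sst and Cacna2d2 in Pvalb nuclei, Cacna2d4 is high in oligodendrocytes, and the 2 groups lie close together in these classes.

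The sodium channel genes Scn2a and Scn8a varied less across the neuronal classes than Scn1a, Scn3a and Scn9a, which marked classes. Scn2a and Scn8a encode the main axonal sodium channels of excitatory neurons. Scn2a ran from 183 CPM in Pvalb interneurons to 344 CPM in dentate granule nuclei, and Scn8a from 296 CPM in Cck interneurons to 757 CPM in CA2. Scn1a, the sodium channel gene of Dravet syndrome, was highest in Pvalb interneurons, with 532 and 472 CPM in Control, against 551 and 549 CPM in Kat6a-cKO. It was above every library of every other class there, followed by 429.6 ± 15.8 CPM in Lamp5 and 397 ± 32.3 CPM in Cck interneurons, which overlapped. CA1 had 187 ± 6.43 CPM. Scn3a, better known from embryonic brain, had 229 and 212 CPM in Control, against 216 and 214 CPM in Kat6a-cKO in mature dentate granule nuclei and 186 and 198 CPM in Control, against 199 and 175 CPM in Kat6a-cKO in immature ones. In CA3 it had 58.1 ± 1.34 CPM.

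Scn9a, the sodium channel gene known for pain-sensing neurons, had 253 and 309 CPM in Control, against 221 and 325 CPM in Kat6a-cKO in Pvalb interneurons. Cck interneurons had 90.0 and 191 CPM in Control, against 119 and 155 CPM in Kat6a-cKO, and the lowest neuronal class was CA2, with 3.5 and 4.59 CPM in Control, against 5.72 and 5.01 CPM in Kat6a-cKO. Within dentate granule nuclei Scn9a was concentrated in 1 of 4 clusters, whose leading genes included Glis3 and Ano2. That cluster had 43.2 and 48.2 CPM in Control, against 59.2 and 53.5 CPM in Kat6a-cKO. The Control means of the other 3 clusters were 9.78, 9.17 and 12.9 CPM. Scn1a (chromosome 2, 66270778 to 66440840, minus strand), Scn9a (chromosome 2, 66480080 to 66634962, minus strand) and Scn7a (chromosome 2, 66673425 to 66784914, minus strand) follow each other on that chromosome in GENCODE M21 (GRCm38). Scn2a lies on the same chromosome at 65620771 to 65767447, plus strand. Of the neuronal classes Scn2a was lowest in Pvalb interneurons, where Scn1a and Scn9a were highest. An annotated antisense gene overlaps Scn9a, and the counting strand is not given in the sources used here.

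Scn7a, which encodes a sodium sensor rather than a classical channel, was highest in Vip interneurons, with 19.6 and 24.3 CPM in Control, against 14.9 and 23.7 CPM in Kat6a-cKO. In CA3 it had 5.05 and 6.25 CPM in Control, against 6.16 and 5.67 CPM in Kat6a-cKO, and 0.657 CPM in the Control mean of CA1. In 1 of the 3 CA3 clusters it had a Control mean of 21.8 CPM, against 2.49 CPM in the largest. Scn4a, the muscle sodium channel gene, had 4 counts over the 4 libraries in CA3 and 3 in CA1. Of the beta subunit genes, Scn3b had 157 ± 0.922 CPM in CA1 and 154 ± 1.41 CPM in dentate granule nuclei, which overlapped, against 70.6 ± 0.42 CPM in CA3 and 16.2 ± 3.05 CPM in CA2. Scn2b stayed at or below 3.9 CPM and Scn4b at or below 14.0 CPM in the Control mean of every neuronal class.

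The HCN genes on the list also differed between classes. Hcn2 had neuronal means from 11.7 CPM in dentate granule nuclei to 36.2 CPM in Pvalb interneurons, and had a higher mean in oligodendrocytes, with 52.0 and 50.9 CPM in Control, against 39.4 and 55.9 CPM in Kat6a-cKO. Hcn2 is a short gene, and on the untested scale per 100 kb its Control mean was 100.1 CPM in CA1, beside 60.4 CPM for Nalcn. Hcn3 had 19.9 ± 2.86 CPM in Cck and 19.0 ± 1.66 CPM in Sst interneurons and 17.0 ± 1.31 CPM in immature dentate nuclei, against 2.64 ± 0.463 CPM in mature granule nuclei. Every library of immature dentate nuclei exceeded every library of mature granule nuclei for Hcn3, and the reverse held for Cacna1h. Hcn4, known as the cardiac pacemaker channel gene, had its highest mean in Cajal-Retzius nuclei, with 31.4 and 5.15 CPM in Control, against 27.6 and 30.7 CPM in Kat6a-cKO. There 1 library holds 1 count, so the value is imprecise. Vip interneurons had 13.0 and 12.1 CPM in Control, against 3.2 and 8.37 CPM in Kat6a-cKO, and CA3 had 21 counts in all. Over the 13 neuronal classes Nalcn had the smallest ratio of highest to lowest mean, from 203 CPM in CA2 to 343 CPM in Lamp5 interneurons.

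Among the channel genes well counted in free RNA, most lay below the level of free RNA in glia, and a few did not. For 23 genes with at least 20 counts of free RNA in each library, the CPM in a class was divided by the CPM in the free RNA of the same library. This minimum was set on the free RNA itself, so genes low in free RNA have no ratio and low ratios are favoured. The median ratio was 0.186 in astrocytes, 0.168 in oligodendrocytes, 0.655 in oligodendrocyte precursors and 0.188 in microglia. In dentate granule nuclei it was 1.04. Oligodendrocyte precursors exceeded free RNA in all 4 libraries for 4 of the 23 genes. They were Nalcn (2.03 to 2.14 times free RNA), Scn3a (1.33 to 1.86), Scn1a (1.22 to 1.25) and Cacna2d2 (1.1 to 1.73). Nalcn had 349.7 and 322 CPM in Control, against 358 and 360.3 CPM in Kat6a-cKO in these precursors, above its level in CA3 nuclei in all 4 libraries. Oligodendrocytes exceeded free RNA for Hcn2 (1.44 to 2.21) and Nalcn (1.08 to 1.2), and astrocytes and microglia for none of these genes in all 4 libraries. Cacna2d4 did not reach that minimum, and its CPM in oligodendrocytes lay above its CPM in free RNA in all 4 libraries.

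Microglia held 2 calcium channel genes close to the free RNA level. Cacna1d had 413 and 347 CPM in Control, against 343 and 374 CPM in Kat6a-cKO in microglia, 0.896 to 1.04 times free RNA, and Cacnb2 had 562 and 622 CPM in Control, against 663 and 675 CPM in Kat6a-cKO, 0.745 to 0.852 times free RNA. In the same nuclei Cacna1c came to 0.0576 to 0.085 times, Cacna1e to 0.0954 to 0.118 times and Cacna2d1 to 0.113 to 0.138 times free RNA. The ratios of Cacna1d and Cacnb2 were the highest of the 23 genes in microglia in all 4 libraries, followed in the median by Cacnb1 (0.235 to 0.645). Neither lay above 1 in all 4 libraries, and the part of free RNA in these values was not tested. Chdh and Dcp1a overlap Cacna1d, and their Control means in microglia were 0.841 and 52.9 CPM.

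**Figure D3:**
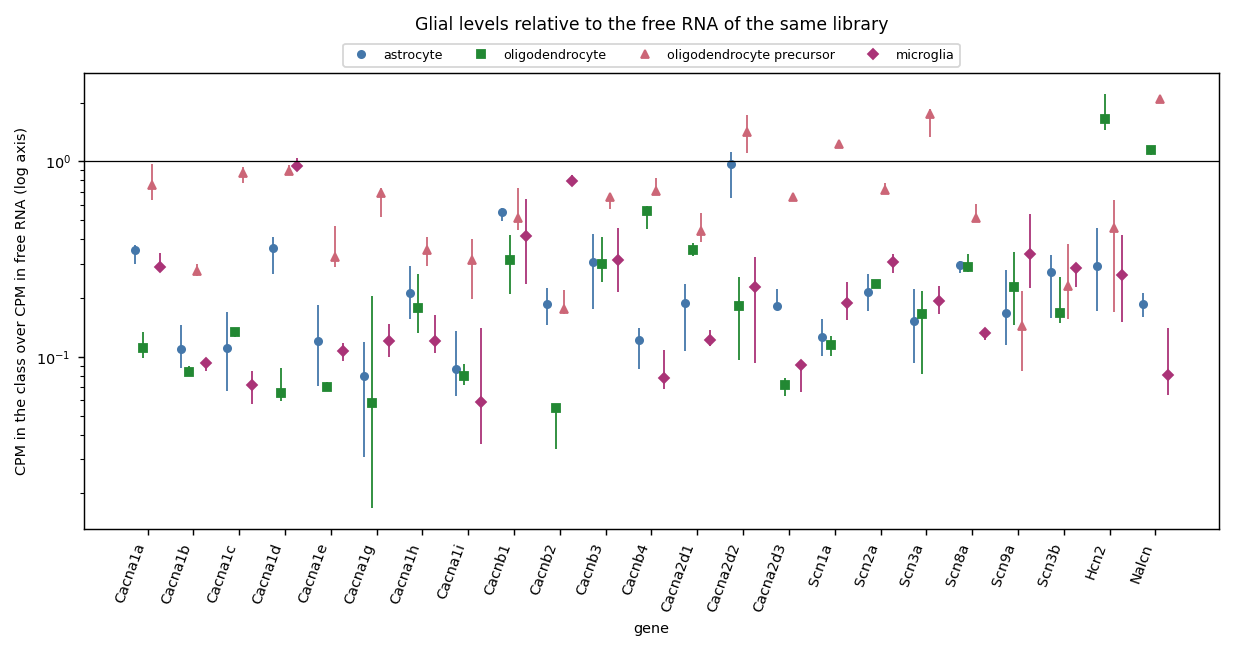
CPM in astrocytes, oligodendrocytes, oligodendrocyte precursors and microglia divided by the CPM in free RNA of the same library (log axis), for 23 channel genes; symbols are medians over the 4 libraries and lines run from the lowest to the highest library. In the median over the 23 genes, though not for each gene, precursors lie nearest to 1. Nalcn in precursors and Hcn2 in oligodendrocytes lie above 1, and Cacna1d and Cacnb2 stand above the other genes in microglia. Genes with few counts in free RNA, such as Cacna2d4, are not shown.

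The summed level of the 31 genes was 10330.1 and 10239 CPM in Control, against 10426 and 10448 CPM in Kat6a-cKO in CA3, and 9353 to 9484 CPM over the 4 libraries in dentate granule nuclei. Kat6a-cKO was then compared with Control within each class, which asks whether the channel genes change in the neurons the deletion is directed at. No channel gene passed the threshold in CA3. The summed counts were fitted by edgeR's quasi-likelihood test over all genes, with p-values adjusted by Benjamini-Hochberg and a threshold of 0.05. Changes are log2 fold changes of Kat6a-cKO over Control with their SE, with 2 libraries per group. In CA3, edgeR called 0 of the 29 channel genes tested and 4 of all 15435 genes (0.0259%), and DESeq2 also called 0 channel genes. An unadjusted p under 0.05 was reached by 3 channel genes, where the share over all genes was 7.93%. The median log2 fold change was 0.04 over the channel genes and −0.01 over all genes. The groups did not overlap for 12 channel genes, where the share over all genes was 37.2%. Scn4a and Hcn4 were too low to be tested.

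The 3 channel genes with an unadjusted p under 0.05 in CA3 were Scn4b, Cacna1i and Scn2b. Scn4b, a sodium channel beta subunit, had 4.05 and 2.65 CPM in Control, against 1.7 and 1.94 CPM in Kat6a-cKO in CA3, a log2 fold change of −0.86 ± 0.29 (adjusted p = 0.457). Scn2b, another beta subunit, had 1.37 and 2.1 CPM in Control, against 0.735 and 0.995 CPM in Kat6a-cKO, and its log2 fold change was −0.99 ± 0.36 (adjusted p = 0.494). Both are at a few CPM. Cacna1i, a T-type pore, had 41.3 and 41.2 CPM in Control, against 54.8 and 45.4 CPM in Kat6a-cKO, a log2 fold change of 0.29 ± 0.11 (adjusted p = 0.493). It was 0.14 when Kat6a-cKO replicate 1 was left out and 0.44 when Kat6a-cKO replicate 2 was. For all 3 both Kat6a-cKO libraries lay on 1 side of both Control libraries. For the abundant genes the interval of the difference was narrow. The 95% interval was −0.19 to 0.11 for Cacna1a, −0.12 to 0.17 for Cacna1c and −0.15 to 0.15 for Scn8a. It lay within a log2 change of 0.5 in either direction for 20 of the 29 genes and within a log2 change of 1 for 25.

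In CA1, edgeR called 0 of 30 channel genes and 2 of 17077 genes (0.0117%), and DESeq2 called 0 channel genes. Cacna1h and Scn4b had an unadjusted p under 0.05, a share of all genes of 8.05%. Cacna1h, a T-type pore, had 38.1 and 36.4 CPM in Control, against 40.1 and 51.8 CPM in Kat6a-cKO, with a log2 fold change of 0.32 ± 0.12 (adjusted p = 0.593). Without Kat6a-cKO replicate 1 that value was 0.48, and without Kat6a-cKO replicate 2 it was 0.13. Scn4b had 8.49 and 2.94 CPM in Control, against 2.03 and 3.02 CPM in Kat6a-cKO, with a log2 fold change of −1.16 ± 0.48 (adjusted p = 0.615). With no filter on low counts edgeR called Scn4b, at −1.17 (adjusted p = 1.64e-06), and 540 of 28712 genes. For Scn4b Control replicate 1 stood apart and the groups overlapped. Without that library the log2 fold change in CA1 was −0.17 (adjusted p = 0.998), and without Control replicate 2 it was −1.76 (adjusted p = 0.00666). In CA3 these values were −0.50 and −1.17 (adjusted p = 0.811 and 0.0217). The free RNA of Control replicate 1 also held the most Scn4b, with 7.93 and 2.81 CPM in Control, against 3.26 and 3.69 CPM in Kat6a-cKO, and its part in the result was not tested. Cacna1a had a 95% interval of −0.17 to 0.14, and the interval lay within a log2 change of 0.5 in either direction for 20 of the 30 genes. The median log2 fold change was 0.00 over the channel genes and 0.00 over all genes. The groups did not overlap for 8 channel genes, where the share over all genes was 38.2%.

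In dentate granule nuclei, edgeR called 0 of 29 channel genes and 95 of 17306 genes (0.549%). DESeq2 called 1 channel gene, Scn9a, and 219 of 17306 genes. An unadjusted p under 0.05 was reached by Scn9a and Cacna1i, where the share over all genes was 9.97%. Scn9a had 20.0 and 26.2 CPM in Control, against 32.5 and 30.8 CPM in Kat6a-cKO, both Kat6a-cKO libraries above both Control libraries, and a log2 fold change of 0.47 ± 0.11 (adjusted p = 0.131). DESeq2 gave 0.47 (adjusted p = 0.031). Without Control replicate 2 edgeR gave 0.65 for Scn9a and −1.70 for Scn4b, and without Control replicate 1 it gave 0.30 for Scn9a. The cluster that carried most Scn9a made up 28.1% and 33.2% of the dentate granule nuclei in Control, against 34.0% and 35.4% in Kat6a-cKO. Within that cluster the values were 43.2 and 48.2 CPM in Control, against 59.2 and 53.5 CPM in Kat6a-cKO. Free RNA held 47.6 and 53.1 CPM in Control, against 60.0 and 47.0 CPM in Kat6a-cKO, which overlapped between the groups. The part of the shares in the result was not tested. Cacna1i had 14.5 and 16.3 CPM in Control, against 17.8 and 17.9 CPM in Kat6a-cKO, with a log2 fold change of 0.23 ± 0.10 (adjusted p = 0.467). The median log2 fold change was 0.00 for the channel genes and 0.00 for all genes. The 95% interval lay within a log2 change of 0.5 in either direction for 22 genes. The groups did not overlap for 11 channel genes (40.2% of all genes).

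In inhibitory neurons, at which the deletion is not directed, edgeR called 0 of 29 channel genes and 4 of 14680 genes (0.0272%), and DESeq2 called 0 channel genes. The 3 with an unadjusted p under 0.05, a share of 6.54% over all genes, all had the higher mean in Kat6a-cKO. Hcn3 had 16.5 and 16.3 CPM in Control, against 21.5 and 20.5 CPM in Kat6a-cKO after TMM scaling and a log2 fold change of 0.35 ± 0.13 (adjusted p = 0.588). Cacna1i had 15.4 and 16.9 CPM in Control, against 22.5 and 18.8 CPM in Kat6a-cKO, with a log2 fold change of 0.36 ± 0.14 (adjusted p = 0.648), which was 0.22 without Kat6a-cKO replicate 1. Cacna1b, the N-type pore, had 419 and 415 CPM in Control, against 476 and 458 CPM in Kat6a-cKO, with a log2 fold change of 0.16 ± 0.07 (adjusted p = 0.7). In each of these 3 both Kat6a-cKO libraries lay above both Control libraries. Without overlap in either direction were 9 channel genes (35.7% of all genes).

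**Figure D4:**
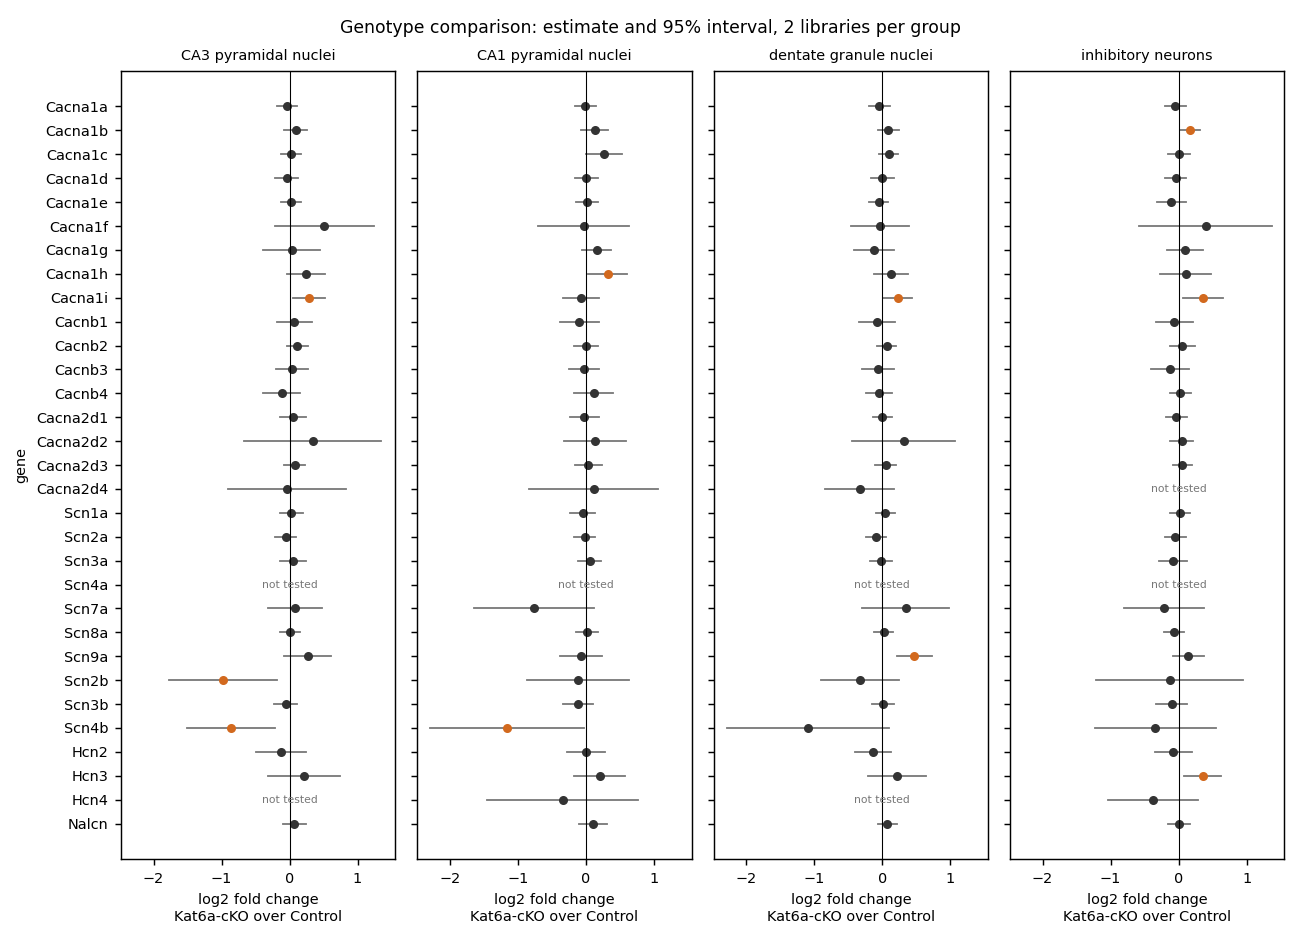
Log2 fold change of Kat6a-cKO over Control with its 95% interval from edgeR in CA3, CA1, dentate granule and inhibitory nuclei (2 libraries per group). Of the 31 channel genes 29, 30, 29 and 29 were tested in turn, and the others are marked as not tested. Orange points have an unadjusted p under 0.05 and none passed the adjusted threshold of 0.05. The abundant genes have short intervals around 0, and Scn4b, Scn2b and other genes at a few CPM have long ones.

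In glia edgeR called 0 of 22 channel genes tested in astrocytes, 0 of 21 in oligodendrocytes and 0 of 24 in oligodendrocyte precursors. Of all genes it called 0 of 11152 (0%), 1 of 11689 (0.00856%) and 0 of 9949 (0%), and DESeq2 called 0 channel genes in each. An unadjusted p under 0.05 was reached by 1, 2 and 3 channel genes, where the shares over all genes were 6.2%, 7.49% and 6.83%. The groups did not overlap for 5, 10 and 10 channel genes, and for 36.4%, 36.2% and 36.8% of all genes. In oligodendrocytes Scn9a had 9.56 and 7.72 CPM in Control, against 15.3 and 16.2 CPM in Kat6a-cKO, with a log2 fold change of 0.86 ± 0.26 (adjusted p = 0.369). Cacna2d3 had 39.2 and 42.9 CPM in Control, against 53.1 and 55.1 CPM in Kat6a-cKO, with a log2 fold change of 0.41 ± 0.15 (adjusted p = 0.51). In oligodendrocyte precursors Scn9a had 5.41 and 4.48 CPM in Control, against 13.1 and 8.23 CPM in Kat6a-cKO, with a log2 fold change of 1.18 ± 0.48 (adjusted p = 0.621), which was 0.73 without Kat6a-cKO replicate 1. These levels were 0.145 to 0.344 times free RNA in oligodendrocytes and 0.0843 to 0.218 times in precursors. Cacna1e in precursors had 279 and 399.8 CPM in Control, against 255 and 254 CPM in Kat6a-cKO, with a log2 fold change of −0.39 ± 0.14 (adjusted p = 0.546), with Control replicate 2 the highest. Without Control replicate 2 it was −0.12 (adjusted p = 0.979) and without Control replicate 1 it was −0.61 (adjusted p = 0.00109). In astrocytes Cacna1c, Cacna1e and Cacna2d1 had log2 fold changes of 0.97, 0.88 and 0.95 when Control replicate 1 was left out. With all 4 libraries Cacna1c had 107 and 46.6 CPM in Control, against 119 and 48.1 CPM in Kat6a-cKO there, Cacna1e 151 and 60.3 CPM in Control, against 128 and 78.0 CPM in Kat6a-cKO and Cacna2d1 143 and 63.4 CPM in Control, against 143 and 84.9 CPM in Kat6a-cKO. For these 3 genes replicate 1 was the higher library in both groups, and the groups overlapped. Hcn2 had 13.5 and 17.9 CPM in Control, against 9.27 and 6.4 CPM in Kat6a-cKO in precursors and a log2 fold change of −0.91 ± 0.39 (adjusted p = 0.641). In astrocytes Hcn2 had 9.49 and 13.0 CPM in Control, against 4.7 and 6.87 CPM in Kat6a-cKO, a log2 fold change of −0.93 ± 0.40 (adjusted p = 0.786), which was −0.43 with doublets kept. For Hcn2 the groups did not overlap in either class, and its levels were 0.172 to 0.459 times free RNA in astrocytes and 0.17 to 0.633 times in precursors, below free RNA in all 4 libraries. The summed markers of excitatory neurons, a sign of neuronal RNA, were 168 and 274 CPM in Control precursors and 149 and 142 CPM in Kat6a-cKO precursors. All 6 markers on that list had counts, and Control replicate 2 was highest there too. Neurod6, the gene that holds NEX-cre, is on that list. It had 28.4 and 29.1 CPM in Control precursors, against 15.8 and 9.15 CPM in Kat6a-cKO precursors. Neurod6 was also lower in Kat6a-cKO within neurons. In CA3 it had 69.2 and 63.2 CPM in Control, against 50.6 and 42.7 CPM in Kat6a-cKO. CA1 had 44.2 and 47.1 CPM of it in Control, against 31.1 and 26.9 CPM in Kat6a-cKO. In mossy cells the groups overlapped, with 58.7 and 60.1 CPM in Control, against 60.6 and 42.1 CPM in Kat6a-cKO. The part of the markers in the result was not tested.

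In the Pvalb interneurons, where Scn9a was highest, the groups overlapped. In microglia, which were not tested, Scn9a had 14.0 and 11.99 CPM in Control, against 22.8 and 25.3 CPM in Kat6a-cKO. Scn9a there lay at 0.226 to 0.538 times free RNA. In CA3 it had 7.16 and 9.29 CPM in Control, against 9.89 and 9.8 CPM in Kat6a-cKO, with a log2 fold change of 0.27 ± 0.16 (adjusted p = 0.744), and in CA1 9.66 and 10.0 CPM in Control, against 10.0 and 8.48 CPM in Kat6a-cKO, with −0.07 ± 0.13 (adjusted p = 0.931).

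**Figure D5:**
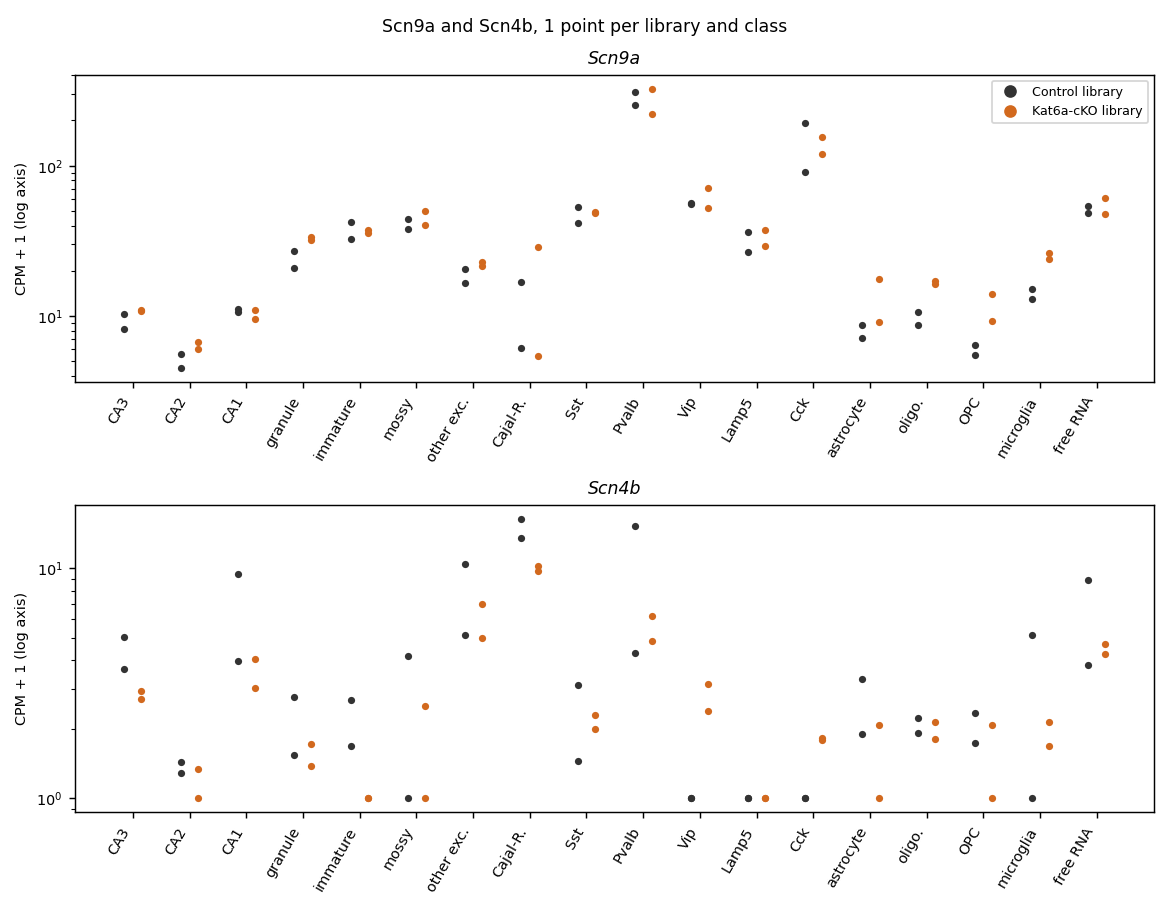
CPM + 1 (log axis) of Scn9a (top) and Scn4b (bottom) in each library (1 point per library; Control black, Kat6a-cKO orange) in 17 classes of nuclei and in free RNA. Scn9a is highest in Pvalb and Cck interneurons and overlaps between the groups there and in free RNA, while 1 Control library holds the highest Scn4b in CA1, Pvalb nuclei and free RNA.

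EdgeR was also asked whether the change of a gene was unequal in a pair of classes, by an interaction term in a model that keeps each library as a block. The test called 0 of 30 channel genes between CA3 and CA1, 0 of 29 between CA3 and dentate granule nuclei and 0 of 30 between CA1 and dentate granule nuclei, and DESeq2 also called 0 in each. Without Kat6a-cKO replicate 2 the CA3 change minus CA1 change was 0.66 for Cacna1i and −0.36 for Cacna1c. Without Control replicate 2 the CA3 change minus dentate granule change was 0.39 for Cacna1h. With all 4 libraries the test called 0.081%, 0.114% and 0.033% of all genes. An unadjusted p under 0.05 was reached by 4, 0 and 6 channel genes, where the shares over all genes were 5.54%, 5.61% and 6.88%. The CA3 change minus CA1 change was −0.21 ± 0.07 (adjusted p = 0.596) for Cacnb4, 0.37 ± 0.14 (adjusted p = 0.805) for Cacna1i, −0.22 ± 0.09 (adjusted p = 0.827) for Cacna1c and 0.36 ± 0.16 (adjusted p = 0.878) for Scn9a. The CA1 change minus dentate granule change was −0.52 ± 0.14 (adjusted p = 0.437) for Scn9a, 0.31 ± 0.10 (adjusted p = 0.611) for Cacna1g and 0.19 ± 0.07 (adjusted p = 0.692) for Cacnb4. It was −1.09 ± 0.44 (adjusted p = 0.707) for Scn7a, 0.20 ± 0.08 (adjusted p = 0.707) for Cacna1c and 0.20 ± 0.08 (adjusted p = 0.709) for Cacna1h. Cacnb4 had 310.0 and 250.03 CPM in Control, against 282 and 232 CPM in Kat6a-cKO in CA3 and 388 and 328 CPM in Control, against 412 and 354 CPM in Kat6a-cKO in CA1, with overlapping groups in both classes. In CA1 Cacna1c had 388 and 453 CPM in Control, against 549 and 448 CPM in Kat6a-cKO, and a log2 fold change of 0.27 ± 0.11 (adjusted p = 0.626). The CA1 cluster led by Adam12 and Hrh3 had a Control mean of 489 CPM of Cacna1c and made up 10.2% of CA1 nuclei in Kat6a-cKO replicate 1, against 3.32% to 4.8% in the other libraries. Without that cluster, an alternative chosen after seeing the data, the log2 fold change of Cacna1c in CA1 was 0.27 (adjusted p = 0.553).

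Proteins that bind or regulate these channels were taken as a second list of 27 genes, of which 26 were in the tables. It holds fibroblast growth factor homologous factors and ankyrins of the axon initial segment, Pex5l (a partner of HCN channels), Unc79, Unc80 and Fam155a (partners of Nalcn) and the Rims proteins of the release site. EdgeR called 0 of 18 to 24 partner genes tested in each of the 7 classes, and DESeq2 called 0. The interaction tests called 0 of the 23, 24 and 24 partner genes tested. An unadjusted p under 0.05 was reached by 5, 0 and 1 of them, where the shares over all genes were 5.54%, 5.61% and 6.88%. The 1 partner gene with an unadjusted p under 0.05 in a class was Fam155a in oligodendrocytes, with 165 and 139 CPM in Control, against 332 and 143 CPM in Kat6a-cKO after TMM scaling. Its log2 fold change was 0.66 ± 0.25 (adjusted p = 0.522), and Kat6a-cKO replicate 1 alone was high. Without Kat6a-cKO replicate 2 it was called, at 1.13 (adjusted p = 0.00575). Without Control replicate 1, Fam155a and Fgf14 were called in astrocytes, at 1.11 (adjusted p = 2.62e-05) and 0.68 (adjusted p = 0.000686), and Nedd4l in oligodendrocyte precursors, at −0.76 (adjusted p = 0.0017). Between CA3 and dentate granule nuclei Rims2 was called without Control replicate 1, at 0.25 (adjusted p = 0.00717), and Rims1 without Control replicate 2, at −0.19 (adjusted p = 0.0381).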

How the data were processed

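Single-nucleus RNA was counted in 4 hippocampal libraries (2 Control, 2 Kat6a-cKO). The authors deposited whole-number UMI counts per gene and barcode with no normalization, and the submitters' processing notes name Seurat 4.0.1 and the build mm10. The aligner, the use of intronic reads and the counting strand are not given in the sources used here. Raw barcodes were filtered, and doublets removed with Scrublet at an expected rate of 0.06. Scanpy 1.11.5 clustered the nuclei (2000 variable genes without 97 genes of interest, 30 principal components, 15 neighbours, Leiden resolution 1), and a name needed at least 50% of a class's markers, and at least 3, raised by 2-fold or more with 5 CPM added. UMI minimums and naming thresholds were set after the counts were seen.

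Counts were summed per library and class, and edgeR 4.0.16 (R 4.3.3) compared groups with TMM scaling, filterByExpr and the quasi-likelihood test. Alternatives were DESeq2 1.42.0 (missing adjusted p-values stayed missing), no filter on low counts, higher UMI minimums (10000 and 3000), doublets kept, Leiden resolution 2, a replicate block and each library left out. CPM are shares of all counts of a class in a library, and intervals and limits cover the spread between libraries or counting error only. In the genotype tests the text names each channel gene with an unadjusted p under 0.05 and describes the rest by counts. The members and lists were chosen with earlier results of these data known. Scripts were tested on simulated counts. Gene positions come from GENCODE M21, in which 5 of the 31 genes have another identifier version.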

Additional observations from a re-analysis of the deposited data

How the results depend on the processing

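The number of genes called over the whole table varied by more than 1.5 times with most settings, and the cause was not tested. With the settings as reported, edgeR called 4 (CA3), 2 (CA1), 95 (dentate granule), 4 (inhibitory neurons), 0 (astrocytes), 1 (oligodendrocytes), 0 (precursors), 14 (CA3 minus CA1), 20 (CA3 minus dentate granule), 6 (CA1 minus dentate granule), where a class minus a class stands for the difference of their changes. DESeq2 called 29 (CA3), 109 (CA1), 219 (dentate granule), 12 (inhibitory neurons), 1 (astrocytes), 4 (oligodendrocytes), 5 (CA3 minus dentate granule) and 10 (CA1 minus dentate granule). With no filter on low counts, edgeR called 297 (CA3), 540 (CA1), 615 (dentate granule), 138 (inhibitory neurons), 125 (astrocytes), 126 (oligodendrocytes), 55 (precursors), 187 (CA3 minus CA1), 85 (CA3 minus dentate granule) and 271 (CA1 minus dentate granule). With the replicate number as a block edgeR called 76 (CA3), 251 (dentate granule), 27 (inhibitory neurons), 105 (astrocytes), 324 (oligodendrocytes) and 51 (precursors). With doublets kept it called 2 (CA3), 4 (CA1), 6 (astrocytes), 13 (precursors) and 4 (CA3 minus CA1). Without the cluster led by Adam12 and Hrh3, a choice made after seeing the data, it called 4 (CA1). At the higher UMI minimum it called 58 (dentate granule) and 0 (inhibitory neurons). At Leiden resolution 2 it called 34 (astrocytes) and 12 (CA3 minus dentate granule). With 1 library left out in turn, where the lone library of a group is assumed to vary like the other group, the counts ran from 3 to 320 (CA3), 25 to 317 (CA1), 49 to 313 (dentate granule), 29 to 136 (inhibitory neurons), 0 to 206 (astrocytes), 1 to 30 (oligodendrocytes), 15 to 155 (precursors), 9 to 220 (CA3 minus CA1), 11 to 201 (CA3 minus dentate granule), 6 to 202 (CA1 minus dentate granule). Of the channel genes, 0 were called as reported. With no filter on low counts edgeR called 1 (CA1), 2 (dentate granule), 2 (CA3 minus CA1) and 1 (CA1 minus dentate granule), DESeq2 called 1 (dentate granule) (Scn9a), and the replicate block gave 1 (oligodendrocytes) (Scn9a, adjusted p = 0.0425). With 1 library left out the channel genes called ran from 0 to 1 (CA3), 0 to 1 (CA1), 0 to 2 (dentate granule), 0 to 3 (astrocytes), 0 to 1 (precursors), 0 to 2 (CA3 minus CA1), 0 to 1 (CA3 minus dentate granule). The genes called without filter or with 1 library left out were Scn4b and Scn9a in neurons, Cacna1e, Cacna2d1 and Cacna1c in glia and Cacna1c, Cacna1h, Cacna1i and Scn9a among the differences between classes. Of the partner genes, 0 were called as reported. Beside those called with 1 library left out, edgeR called Fam155a in oligodendrocytes with no filter on low counts, at 0.65 (adjusted p = 0.000259), and with the replicate block, at 0.58 (adjusted p = 5.19e-07), and Rims2 in CA1 minus dentate granule with no filter, at 0.23 (adjusted p = 0.0424). Of 162 recomputed log2 fold changes of the named channel genes, 153 kept their sign and side of the threshold, 8 passed the threshold and 1 changed sign, Cacna1e in oligodendrocyte precursors with doublets kept (0.00389). Deviations of same-numbered libraries from their group means correlated at 0.00 to 0.27 across genes over the 7 classes. Nothing in the labels ties a number in Control to the same number in Kat6a-cKO, and 2 pairs are too few to settle it. The count filter limited which genes could be tested, and Scn4a and Hcn4 were below it in CA3 and also in dentate granule nuclei.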
